A study of Mus musculus with 8 samples.

Results

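The cyclin-dependent kinase inhibitors described here are the genes Cdkn1a, Cdkn1b, Cdkn2a, Cdkn2b, Cdkn2c and Cdkn2d of the mouse. They were chosen by gene symbol from the authors' FPKM table (fragments per kilobase of transcript, scaled by library depth), and all 6 were found among its 38610 symbols. The choice also rested on measured values, because Cdkn2a and Cdkn2b were lower in every knockout library than in wild type, so differences between the knockouts and wild type are given below as descriptions with no test. RNA-seq was performed on CJ9 cells, a 129S4/SvJae mouse embryonic stem cell line, which had been without leukemia inhibitory factor, the cytokine that keeps them undifferentiated, up to day 4. There were 3 libraries of Evx1as knockout (KO) cells, 3 labelled EVX1 KO and 2 of wild-type (WT) cells, all of the same line, strain, treatment and day, and the series title names CRISPR as the way the knockouts were made. Evx1as is a long noncoding RNA beside Evx1, a homeobox gene of the primitive streak. The labels do not say whether the knockout libraries come from 1 clone or several, or from separate cultures, so the spread between libraries may be technical in part. Libraries of the same knockout group also differed in chromosome-wide medians, as given below.

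Progression of the cell cycle depends on cyclin-dependent kinases, which are active when bound to cyclins. The INK4 inhibitors (products of Cdkn2a, Cdkn2b, Cdkn2c and Cdkn2d) bind the kinases that pair with D-type cyclins, and the CIP/KIP inhibitors (products of Cdkn1a, Cdkn1b and Cdkn1c) bind complexes of cyclins with kinases more broadly. Cdkn2a also encodes p19ARF from a separate first exon, a protein that restrains Mdm2 and thereby stabilises p53. Mouse embryonic stem cells are known for a short first gap phase and low INK4 levels, and the Cdkn2a and Cdkn2b locus is a known target of Polycomb repression.

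The transcript starts of the genes whose levels set the knockouts apart are shown first, because Cdkn2a has a pair of first exons and the deposited values do not separate them. The sequences are RefSeq windows on GRCm38.p6 that run from 250 bases before to 50 bases after the start, and capitals mark GGGCGG on either strand, the GC box bound by Sp and Klf factors. The deposited table places the starts of its Cdkn2a transcripts 12427 bp apart, and these windows are 12427 bp apart too. The upstream window (chr4:89294570-89294869, minus strand) belongs to the p19ARF transcript, the next (chr4:89282143-89282442, minus strand) to the p16INK4a transcript, and the last (chr4:89310983-89311282, minus strand) to Cdkn2b.
Cdkn2a p19ARF start: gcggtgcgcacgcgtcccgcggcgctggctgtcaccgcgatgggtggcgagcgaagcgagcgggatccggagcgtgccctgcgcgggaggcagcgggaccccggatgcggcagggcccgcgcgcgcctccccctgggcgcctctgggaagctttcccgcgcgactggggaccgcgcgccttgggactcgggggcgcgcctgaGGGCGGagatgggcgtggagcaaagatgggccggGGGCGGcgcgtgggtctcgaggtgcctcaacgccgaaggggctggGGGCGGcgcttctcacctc
Cdkn2a p16INK4a start: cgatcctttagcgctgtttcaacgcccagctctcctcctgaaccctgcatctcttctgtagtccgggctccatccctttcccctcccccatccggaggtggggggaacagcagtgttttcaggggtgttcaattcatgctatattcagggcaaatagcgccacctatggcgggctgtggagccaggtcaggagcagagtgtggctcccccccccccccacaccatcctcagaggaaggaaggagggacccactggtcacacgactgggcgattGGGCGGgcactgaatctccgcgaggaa
Cdkn2b start: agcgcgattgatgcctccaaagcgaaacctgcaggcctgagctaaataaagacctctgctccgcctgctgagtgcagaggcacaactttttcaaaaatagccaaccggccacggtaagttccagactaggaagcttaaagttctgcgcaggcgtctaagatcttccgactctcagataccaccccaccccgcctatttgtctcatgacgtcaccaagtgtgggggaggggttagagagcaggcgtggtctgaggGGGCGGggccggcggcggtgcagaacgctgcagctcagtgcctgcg

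GGGCGG was found 3 times in the p19ARF window, once in the p16INK4a window and once in the Cdkn2b window, and 35.7% of 32851 RefSeq windows of that length hold it. The p19ARF window had 45 CG dinucleotides, more than 98.1% of all windows, against 12 in the p16INK4a window and 18 in the Cdkn2b window. TTTNGCGC, an E2F-type motif, occurred once in the p16INK4a window, as it does at least once in 1.38% of all windows. Of the other motifs searched on both strands, CCAAT (37.4% of windows) occurred once in the p16INK4a window, where it shares bases with GGGCGG, and CANNTG (72.3%) once in the Cdkn2b window. CACGTG (7.15%) and TATAAA (13.6%) were not in these 3 windows.

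Summed FPKM lay between 531523 and 587798 per library, and 12244 to 12442 genes reached 1 FPKM. The values are not counts, so absolute depth is unknown. The commonest ratio between libraries among genes at low FPKM put the relative depth at 0.863 to 0.976 times that of WT replicate 1 in Evx1as KO, at 0.989 to 1.04 times in EVX1 KO, and at 1.19 times in WT replicate 2. The targeted genes check the labels in part. Evx1as (5730457N03Rik) stood at 0.0549, 0.104 and 0.0485 FPKM in Evx1as KO, at 5.01, 8.81 and 7.39 in EVX1 KO, and at 5.36 and 6.75 in WT. Evx1 stood at 2.45, 3.84 and 0.541 FPKM in Evx1as KO, at 26.3, 20.8 and 31.7 in EVX1 KO, and at 22.0 and 31.2 in WT, so its transcript gives no check of the EVX1 KO label. Pou5f1, the defining gene of pluripotent cells, averaged 423, 337 and 318 FPKM in Evx1as KO, EVX1 KO and WT. Other pluripotency markers moved in both directions. Of 9 tested, 4 rose and 3 fell in Evx1as KO against WT (limma), while 24.5% of all genes were called. In EVX1 KO against WT 0 of the 9 were called, with 4 at an unadjusted p under 0.05. Nanog averaged 106, 98.5 and 37.1 FPKM in Evx1as KO, EVX1 KO and WT, and Klf2 averaged 4.56, 2.42 and 12.3 FPKM. Chromosome-wide shifts from the mean of all 8 libraries were seen on chromosomes 1, 8 and 14. On chromosome 8 the median was -0.38 and -0.30 (log2) in EVX1 KO replicates 1 and 2 and 0.08 in replicate 3. On chromosome 14 it was 0.13 in Evx1as KO replicate 1 and -0.36 and -0.34 in replicates 2 and 3. Libraries of the same knockout group thus differed chromosome-wide, so the spread within a group includes these shifts, whose cause was not tested. In WT the median reached 0.11 on chromosome 8 in replicate 1 and -0.10 on chromosome 1 in replicate 2. Medians of the members' chromosomes 4, 6, 9 and 17 lay between -0.04 and 0.04 (log2) in all 8 libraries.

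The level of Cdkn2a set both knockouts apart from WT. Cdkn2a (chromosome 4, 88920376 to 88940523 as the authors' table numbers it) stood at 1.68, 2.46 and 3.19 FPKM in Evx1as KO and at 2.82, 3.10 and 4.88 FPKM in EVX1 KO, against 18.6 and 17.4 FPKM in WT. All 6 knockout libraries lay below both WT libraries, and the ranges of the knockouts overlapped each other. The mean was 2.44 ± 0.757 FPKM in Evx1as KO and 3.60 ± 1.12 FPKM in EVX1 KO (SD, n = 3 each), which is 13.6% and 20.0% of the WT mean of 18.0 ± 0.870 FPKM (SD, n = 2). On the log2(FPKM + 1) scale, which understates differences of low genes, the difference from WT was -2.49 ± 0.23 for Evx1as KO and -2.07 ± 0.23 for EVX1 KO (standard error of the fit). In bulk RNA, fewer cells that express a gene and less RNA per cell cannot be told apart.

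Cdkn2b, which encodes p15INK4b and lies next to Cdkn2a (88952197 to 88956941), followed the same order at a lower level. It stood at 0.372, 0.936 and 1.10 FPKM in Evx1as KO and at 1.06, 0.974 and 1.02 FPKM in EVX1 KO, against 3.52 and 3.86 FPKM in WT. Again all knockout libraries lay below both WT libraries. The means of 0.801 ± 0.381 FPKM in Evx1as KO and 1.02 ± 0.0414 FPKM in EVX1 KO (SD, n = 3 each) were 21.7% and 27.6% of the WT mean of 3.69 ± 0.238 FPKM (SD, n = 2). The log2(FPKM + 1) difference from WT was -1.40 ± 0.20 for Evx1as KO and -1.22 ± 0.20 for EVX1 KO. With a pseudocount of 0.1 in place of 1 these differences were -2.18 and -1.76.

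Few fragments stood behind the low values of Cdkn2b. Scaled to the depth of WT replicate 1, its values were whole multiples of a step of 0.107 FPKM, with no library more than 0.0502 steps from a whole number. If 1 step is 1 fragment, Cdkn2b had 3, 8 and 10 fragments in Evx1as KO and 10, 9 and 10 in EVX1 KO, against 33 and 43 in WT. The lowest value, in Evx1as KO replicate 1, thus rests on 3 steps. This estimate was added after the values were seen, and it could not be made for Cdkn2a, whose values fell on no common step.

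Cdkn2a exceeded Cdkn2b in every library. The ratio of their FPKM was 4.51, 2.63 and 2.91 in Evx1as KO and 2.67, 3.18 and 4.76 in EVX1 KO, against 5.28 and 4.50 in WT. These ranges overlapped between the knockouts and WT. A transcript of the table, AK148321, overlaps the whole of Cdkn2b, and it was listed at 0.0678 FPKM in EVX1 KO replicate 1 and at 0 in the other 7 libraries.

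**Figure D1:**
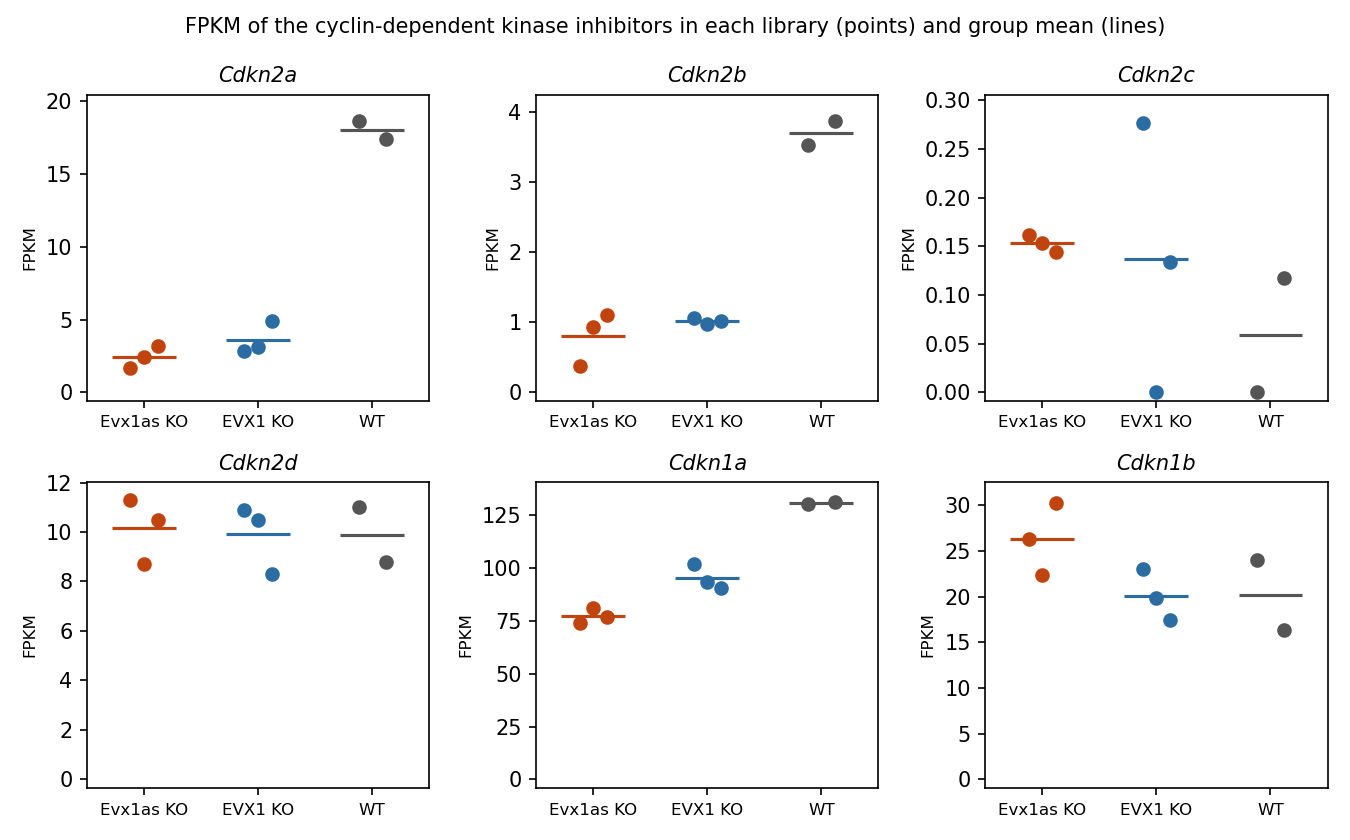
FPKM of the 6 inhibitor genes in Evx1as KO (3 libraries), EVX1 KO (3) and WT (2), with 1 point per library and a line at each group mean. Cdkn2a, Cdkn2b and Cdkn1a lie lower in all knockout libraries than in WT, while the groups overlap for Cdkn2d and Cdkn1b, and Cdkn2c stays at or under 0.277 FPKM.

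The other INK4 genes showed another pattern. Cdkn2d, which encodes p19INK4d, stood at 11.3, 8.72 and 10.5 FPKM in Evx1as KO and at 10.9, 10.5 and 8.32 FPKM in EVX1 KO, against 11 and 8.79 FPKM in WT, so the groups overlapped. Its log2(FPKM + 1) difference from WT was 0.03 ± 0.16 for Evx1as KO and −0.00 ± 0.16 for EVX1 KO. The table lists the same Cdkn2d transcript at 2 places on chromosome 9 (21092907 to 21095653 and 123836859 to 123839607), and how reads were shared between both places is not known here.

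Cdkn2c, which encodes p18INK4c and lies farther along chromosome 4 (109333480 to 109337977), was near the limit of detection. It stood at 0.162, 0.153 and 0.144 FPKM in Evx1as KO and at 0.277, 0 and 0.134 FPKM in EVX1 KO, against 0 and 0.117 FPKM in WT. At a step of 0.140 FPKM these values are 1, 1 and 1 step in Evx1as KO, 2, 0 and 1 in EVX1 KO, and 0 and 1 in WT. A difference between groups was not detectable at this depth, and Cdkn2c was the only member that did not pass the filter of at least 1 FPKM in at least 2 libraries. Cdkn2b passed it with 5 libraries, 3 of them knockouts. An unnamed locus, XLOC_016090, overlaps Cdkn2c by 1180 bp, and how reads were shared between them is not known here. XLOC_016090 stood at 0.0652, 0.0615 and 0.173 FPKM in Evx1as KO and at 0, 0.227 and 0.108 in EVX1 KO. In WT it stood at 0.225 and 0.569 FPKM.

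As a result the order of the INK4 genes differed between the genotypes. Cdkn2d was above Cdkn2a in all 6 knockout libraries, and Cdkn2a was above Cdkn2d in both WT libraries. The ratio of Cdkn2a to Cdkn2d was 0.148, 0.282 and 0.304 in Evx1as KO and 0.258, 0.295 and 0.586 in EVX1 KO, against 1.69 and 1.98 in WT. Summed over the 4 genes, INK4 transcripts stood at 13.5, 12.3 and 14.9 FPKM in Evx1as KO and at 15.1, 14.5 and 14.4 FPKM in EVX1 KO, against 33.2 and 30.2 FPKM in WT.

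Of the CIP/KIP members, Cdkn1a was the most abundant of the family, while Cdkn1b came next in 7 of 8 libraries and was below Cdkn2a in WT replicate 2. Cdkn1a, which encodes p21 and is a classic target gene of p53, had the highest FPKM of the 6 in every library and made up 62.9% to 74.0% of their summed FPKM. Its longer transcript in the table starts 2786 bp upstream of the shorter one on chromosome 17 (29227930 to 29237667), and the values pool both. The RefSeq window at the upstream start (GRCm38.p6, chr17:29090729-29091028, plus strand) is shown because it holds 2 matches to the p53 half-site consensus, in capitals, which 8.36% of all windows hold at least once.
Cdkn1a upstream start: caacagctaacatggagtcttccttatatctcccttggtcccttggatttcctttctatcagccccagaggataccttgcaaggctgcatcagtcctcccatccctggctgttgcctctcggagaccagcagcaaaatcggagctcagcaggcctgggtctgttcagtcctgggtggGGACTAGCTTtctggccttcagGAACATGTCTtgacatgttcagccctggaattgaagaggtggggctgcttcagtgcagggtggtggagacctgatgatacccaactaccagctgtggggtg
Among the windows of the other members, that of Cdkn2d held 1 match to that consensus, and those of Cdkn2a, Cdkn2b, Cdkn2c and Cdkn1b, like the downstream Cdkn1a window, held 0.

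Cdkn1a stood at 74.1, 81.1 and 76.6 FPKM in Evx1as KO and at 102, 93.2 and 90.3 FPKM in EVX1 KO, against 130 and 131 FPKM in WT. The 3 groups did not overlap, with Evx1as KO lowest and WT highest. Means were 77.3 ± 3.58 FPKM in Evx1as KO and 95.2 ± 6.24 FPKM in EVX1 KO (SD, n = 3 each), or 59.2% and 72.9% of the WT mean of 131 ± 0.207 FPKM (SD, n = 2). The log2(FPKM + 1) difference from WT was -0.75 ± 0.08 for Evx1as KO and -0.45 ± 0.08 for EVX1 KO.

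Cdkn1b, which encodes p27 and lies on chromosome 6 (134870418 to 134875543), stood at 26.3, 22.4 and 30.3 FPKM in Evx1as KO and at 23.0, 19.9 and 17.4 FPKM in EVX1 KO, against 24.0 and 16.4 FPKM in WT. The groups overlapped, and the WT libraries differed from each other by more than the group means did. The log2(FPKM + 1) difference from WT was 0.38 ± 0.18 for Evx1as KO and 0.01 ± 0.18 for EVX1 KO. Leaving out 1 WT library or the other moved the Evx1as KO value to 0.12 or 0.64 and the EVX1 KO value to -0.25 or 0.27, so the sign in EVX1 KO depended on which WT library was kept. The ratio of Cdkn1a to Cdkn1b was 2.81, 3.62 and 2.53 in Evx1as KO and 4.44, 4.68 and 5.19 in EVX1 KO, against 5.43 and 7.97 in WT.

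Counted over the 5 members that passed the filter, Cdkn2a, Cdkn2b and Cdkn1a were lower without overlap in Evx1as KO than in WT, and 0 were higher. Among all 13188 genes tested, 26.2% were lower and 29.5% higher without overlap in that comparison. The same 3 members were lower without overlap in EVX1 KO than in WT, where 17.9% of all genes were lower and 21.2% higher. All 6 knockout libraries lay below both WT libraries for these 3 members and for 11.0% of all genes. The members were chosen with this contrast known, so nothing is read from these counts, and both comparisons share the WT libraries.

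**Figure D2:**
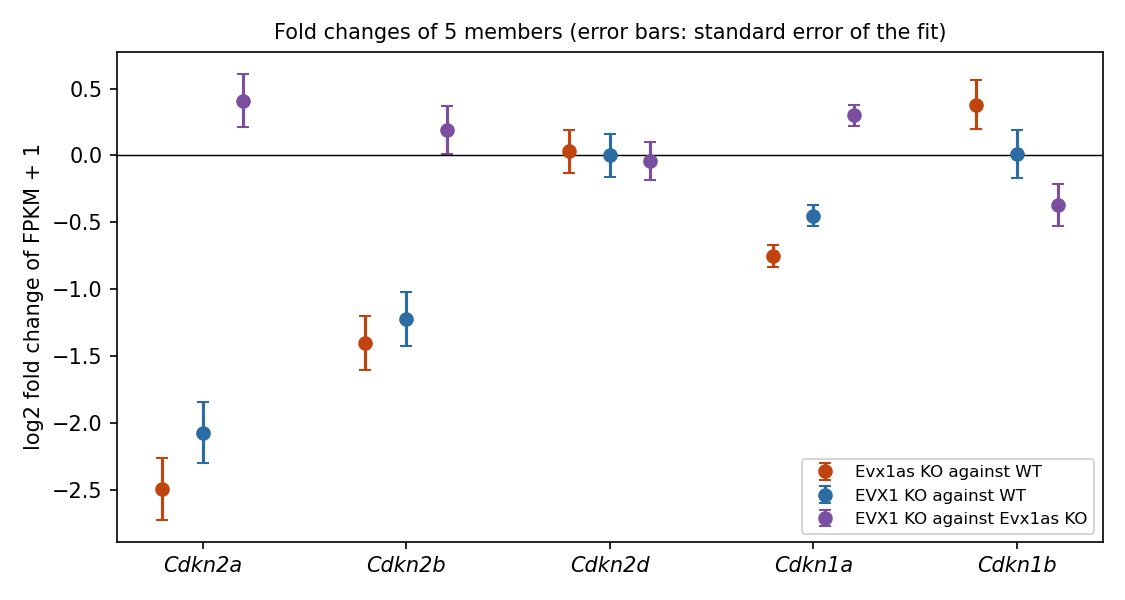
Log2 fold change of FPKM + 1 for the 5 members that passed the filter in each of the 3 comparisons, with bars of 1 standard error of the fit. Cdkn2a lies at -2.49 and -2.07 against WT and Cdkn2d near 0 in all 3 comparisons.

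The direct comparison of EVX1 KO with Evx1as KO was not used in choosing the members and was tested. Cdkn1a was higher in EVX1 KO than in Evx1as KO, with a log2 fold change of 0.30 ± 0.08 (limma, adjusted p = 0.0242 over 13188 genes), and each EVX1 KO library lay above every Evx1as KO library, as for 20.1% of all genes (20.8% lay below). It was the only call among the 5 members tested, while 22.0% of all genes were called (10.7% higher and 11.3% lower in EVX1 KO). The 95% interval of the Cdkn1a difference was 0.13 to 0.47. Leaving out 1 library ended the call in 4 cases with log2 fold changes between 0.25 and 0.31, namely Evx1as KO replicates 1 and 3 (adjusted p of 0.0789 and 0.0825) and EVX1 KO replicates 1 and 2 (0.0559 and 0.0722).

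The INK4 genes did not pass in that comparison. Cdkn2a differed by 0.41 ± 0.20 (limma, adjusted p = 0.171), with a 95% interval from -0.04 to 0.87 that includes 0. Cdkn2b differed by 0.19 ± 0.18 (adjusted p = 0.475, interval -0.21 to 0.59), and Cdkn2d by -0.04 ± 0.14 (adjusted p = 0.877, interval -0.35 to 0.28). Cdkn1b differed by -0.37 ± 0.16 (adjusted p = 0.136, interval -0.74 to 0.00), and it was called with array weights (log2 fold change -0.41, adjusted p = 0.0277).

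Cdkn1c, the third CIP/KIP gene, which encodes p57 and is imprinted, was not among the 6 chosen genes. It stood at 9.95, 12 and 10.2 FPKM in Evx1as KO and at 12.1, 18.5 and 23.3 FPKM in EVX1 KO, against 31.4 and 25.6 FPKM in WT. Cdkn1c fell in Evx1as KO against WT (log2 fold change -1.33 ± 0.23, limma, adjusted p = 0.00475) and did not pass in EVX1 KO against WT (-0.68 ± 0.23, adjusted p = 0.144). Between the knockouts it was 0.66 ± 0.20 higher in EVX1 KO (adjusted p = 0.0475), a call that held under 7 of 17 alternatives.

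The neighbours of Cdkn2a and Cdkn2b on chromosome 4 were examined next. Mtap, a gene of methionine salvage on one side, stood at 21.4, 23.6 and 25.7 FPKM in Evx1as KO and at 21.3, 21.1 and 16.0 FPKM in EVX1 KO, against 25.8 and 27.2 FPKM in WT. It did not pass in Evx1as KO (log2 fold change -0.17 ± 0.14, limma, adjusted p = 0.396) or EVX1 KO against WT (-0.44 ± 0.14, adjusted p = 0.123), although all knockout libraries lay below both WT libraries. AF032968 between Mtap and Cdkn2a was listed at 0 in all libraries, and Dmrta1 and Zfp352 on the other side stayed at or under 0.123 FPKM. Of 36 other genes tested within 10 Mb, 8 rose and 2 fell in Evx1as KO against WT (27.8% called), while 24.5% of all genes were called (13.0% higher and 11.4% lower). In EVX1 KO against WT 1 of the 36 rose, Cer1, a gene of anterior endoderm (log2 fold change 2.74), and 0 fell (2.78% called), while 1.24% of all genes were called (0.69% higher and 0.554% lower). The lowest log2 fold change among them was -0.72 in Evx1as KO and -0.53 in EVX1 KO, at the unnamed locus XLOC_015955 in both.

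**Figure D3:**
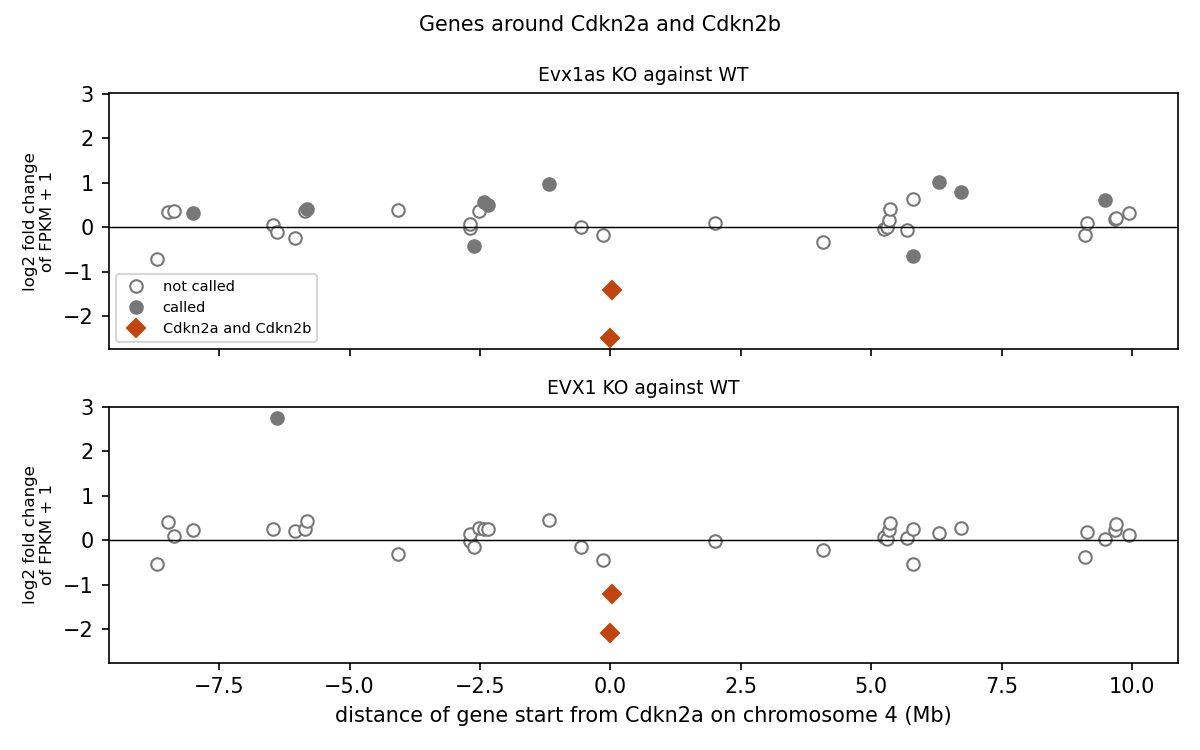
Log2 fold change of FPKM + 1 against WT for genes that start within 10 Mb of Cdkn2a, by distance in Mb, with Evx1as KO above and EVX1 KO below; filled circles are other genes called by limma, open circles those not called, and diamonds are Cdkn2a and Cdkn2b. The diamonds lie below the 36 other genes in both panels.

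Levels most like those of each member over the 8 libraries were looked up among 7801 named genes averaging 5 FPKM or more, as a description, since the libraries fall into genotype groups. For Cdkn2a the closest were Mdm2 (Pearson r = 0.987), Snf8 (0.980) and Axl (0.979). For Cdkn2b they were Snf8 (r = 0.977), Mdm2 (0.972) and Tuft1 (0.971), and for Cdkn1a they were Jup (0.992), Msgn1 (0.983) and Vps37c (0.979). Cdkn1b was closest to Aldh16a1 (r = 0.962), Man2b2 (0.960) and Acbd4 (0.959), and Cdkn2d to Mxra8 (0.980), Rgp1 (0.921) and Tef (0.910). The low steps of Cdkn2c were most like Bspry (r = 0.958), Ccdc43 (0.915) and Msantd2 (0.914). Between members, r was 0.976 for Cdkn2a with Cdkn2b, 0.906 for Cdkn2a with Cdkn1a and -0.188 for Cdkn2a with Cdkn2d. Cdkn2a and Cdkn2b were known to be lower in every knockout library when the members were chosen. A high r between that pair follows in part from the choice, and nothing is read from it.

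**Figure D4:**
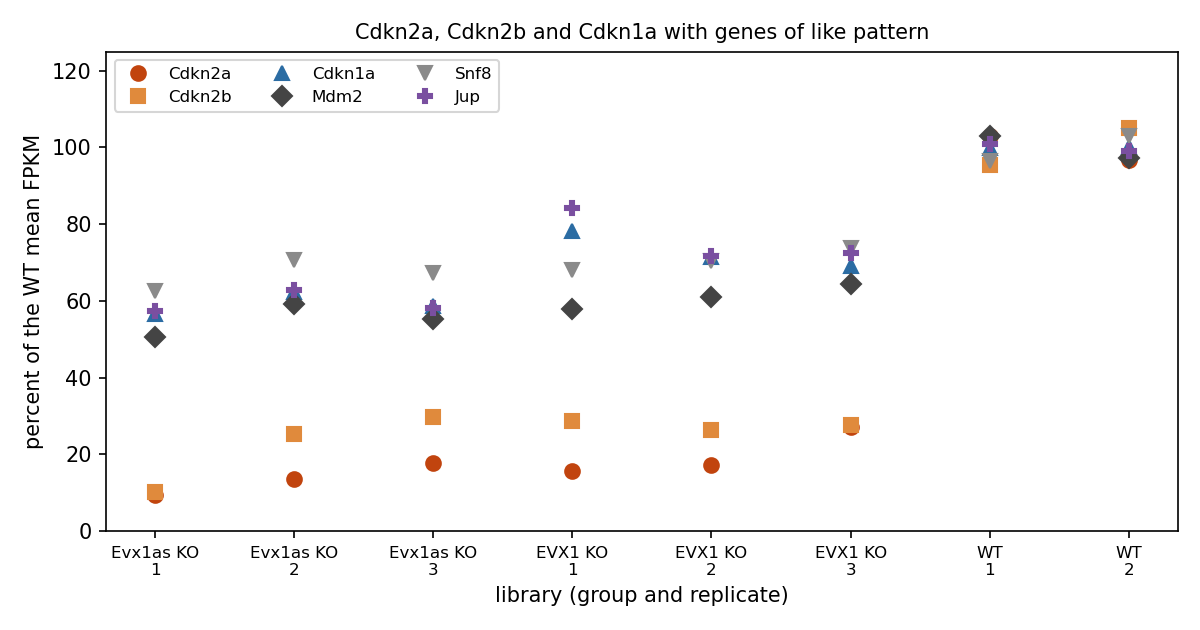
FPKM of Cdkn2a, Cdkn2b, Cdkn1a, Mdm2, Snf8 and Jup in each library as a percent of that gene's WT mean, with the knockout libraries on the left. Cdkn2a lies between 9.32% and 27.1% and Mdm2 between 50.5% and 64.4% in the 6 knockout libraries.

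The p53 pathway links Cdkn2a, through p19ARF, with Cdkn1a. Mdm2, whose product marks p53 for degradation and whose gene is itself a p53 target, stood at 46.3, 54.1 and 50.5 FPKM in Evx1as KO and at 53.1, 56.0 and 58.9 FPKM in EVX1 KO, against 94.1 and 89.0 FPKM in WT. It fell in Evx1as KO (log2 fold change -0.85 ± 0.09, limma, adjusted p = 0.00102) and in EVX1 KO (-0.70 ± 0.09, adjusted p = 0.0214), a call that was lost without EVX1 KO replicate 2, without either WT library, with only those groups in the fit and with the replicate block (highest adjusted p = 0.163). Trp53, the p53 gene, averaged 295 FPKM in Evx1as KO, 366 in EVX1 KO and 388 in WT, and fell in Evx1as KO (-0.39 ± 0.07, adjusted p = 0.00702) but did not pass in EVX1 KO (-0.08 ± 0.07, adjusted p = 0.558). Over all genes, 11.4% fell and 13.0% rose in Evx1as KO against WT, and 0.554% fell and 0.69% rose in EVX1 KO against WT. Between the knockouts 10.7% of all genes were higher and 11.3% lower in EVX1 KO. Of 14 tested p53 targets other than Cdkn1a, 8 fell and 2 rose in Evx1as KO against WT, with a median of -0.53 beside 0.017 over all genes. Phlda3, a repressor of Akt, fell by 1.12 ± 0.12 (adjusted p = 0.000968), while Sesn1, a stress-induced gene, rose by 1.09 ± 0.19 (adjusted p = 0.00535). In EVX1 KO against WT 1 of these 14 fell, the gene of the membrane protein Perp (-0.76 ± 0.15, adjusted p = 0.0472, a call that held under 6 of 17 alternatives), and 0 rose, with 8 of 14 at an unadjusted p under 0.05 and a median of -0.33 beside 0.018. Between the knockouts 3 were higher and 4 lower in EVX1 KO, and these 7 calls were 2, 3 and 2 without Evx1as KO replicate 1, Evx1as KO replicate 3 and EVX1 KO replicate 2. The count of 10 called in Evx1as KO was 6, 6, 4 and 5 without Evx1as KO replicate 1, Evx1as KO replicate 3, WT replicate 1 and WT replicate 2.

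Of the D-type cyclins and kinases that INK4 proteins bind, Ccnd1 and Ccnd2 fell in Evx1as KO against WT and Ccnd3, Cdk4 and Cdk6 did not pass. In that comparison 13.0% of all genes were called higher and 11.4% lower. Over all genes, 1.24% were called in EVX1 KO against WT and 22.0% between the knockouts. Ccnd1 (cyclin D1) averaged 34.9 ± 7.55 FPKM in Evx1as KO against 63.2 ± 0.339 in WT (log2 fold change -0.86 ± 0.16, limma, adjusted p = 0.00702; SD, n = 3 and 2). Ccnd2 was not called without Evx1as KO replicate 2 or 3 or WT replicate 1 or 2, nor with the replicate block. In EVX1 KO against WT limma called 0 of these 5, with 1 at an unadjusted p under 0.05. Between the knockouts Ccnd1 and Ccnd2 were called higher and Cdk4 lower in EVX1 KO, and the Cdk4 call held under 10 of 17 alternatives. Of 6 genes that comprise the E and A cyclins Ccne1, Ccne2 and Ccna2, the kinases Cdk1 and Cdk2 and the activating phosphatase Cdc25a, 0 were called in any comparison, with 0 at an unadjusted p under 0.05 in either knockout against WT and 1 between the knockouts. Of 16 replication genes under E2F control 8 rose in Evx1as KO against WT (median 0.29), among them Ung, a uracil glycosylase gene (0.75 ± 0.13, adjusted p = 0.00547), and Mcm3, a helicase subunit gene (0.60 ± 0.09, adjusted p = 0.00340). In EVX1 KO against WT 0 of 16 were called, with 1 at an unadjusted p under 0.05. Between the knockouts 7 of 16 were called lower and 0 higher in EVX1 KO, beside 11.3% lower and 10.7% higher over all genes. That count of 7 ranged from 2 to 10 over the alternatives. It includes Mcm5 and Cdt1 on chromosome 8 and Mcm3 on chromosome 1, which are among the chromosomes with shifts. The count of 8 was 4 without Evx1as KO replicate 1 or 3 or WT replicate 1, 3 without WT replicate 2, and 5 once genes of chromosomes 1, 8 and 14 were left out.

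**Figure D5:**
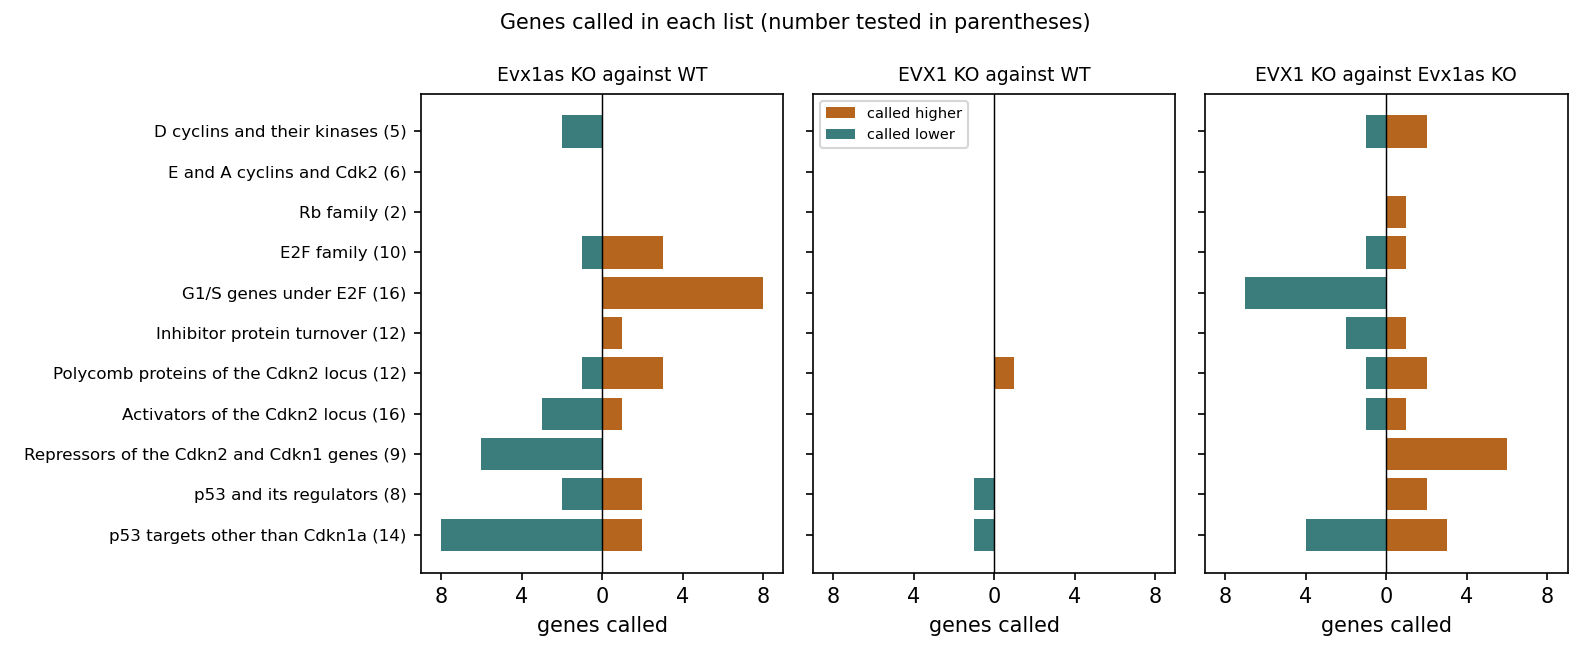
Number of genes called higher (right of 0) and lower (left of 0) in lists of cell cycle genes and known regulators of the inhibitors, with the number tested in parentheses, for the 3 comparisons. In Evx1as KO against WT 8 of 16 replication genes are called higher and 6 of 9 repressors lower, beside 13.0% higher and 11.4% lower over all genes.

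Known regulators of the inhibitors at the transcript level were counted last. Over all genes, 24.5% were called in Evx1as KO against WT (13.0% higher and 11.4% lower). The shares were 1.24% in EVX1 KO against WT and 22.0% between the knockouts. Nothing is read from counts near these shares. Of 9 tested genes for repressors of Cdkn2 or Cdkn1 genes, Id1, Id2, Id3, Myc, Tbx3 and Hmga2 fell in Evx1as KO against WT and 0 rose (median -1.0), a count that was 3 without WT replicate 2. Hmga2, which encodes a chromatin protein, averaged 12.6 ± 1.15 FPKM in Evx1as KO and 40.5 ± 10.3 FPKM in EVX1 KO (SD, n = 3 each), against 30.9 ± 5.05 FPKM in WT (SD, n = 2). In EVX1 KO against WT 0 of 9 were called by limma, with 2 at an unadjusted p under 0.05, and those 6 genes were called higher in EVX1 KO than in Evx1as KO. Of these last calls, that of Id1 (0.64) held under 8 of 17 alternatives and that of Id2 (0.87) under 13, with both lost without Evx1as KO replicate 3, EVX1 KO replicate 2 or EVX1 KO replicate 3, and Id1 also without either WT library and with the replicate block. Of 12 tested Polycomb genes, Ezh1, Ezh2 and Jarid2 rose and Phc2 fell in Evx1as KO against WT, but only 2, 0 and 1 of the list were called without Evx1as KO replicate 3, WT replicate 1 and WT replicate 2. Jarid2, a cofactor of the Polycomb methyltransferase, stood at 33.3, 34.1 and 33.8 FPKM in Evx1as KO and at 37.0, 33.9 and 35.3 FPKM in EVX1 KO, against 23.5 and 27.0 FPKM in WT, and its rise in EVX1 KO (0.48 ± 0.09, adjusted p = 0.0460) held under 6 of 17 alternatives. Of 16 activators of the locus, Tgfb1 (-1.27 ± 0.21, adjusted p = 0.00422), Ets1 and Tgfbr2 fell and Kdm6a rose in Evx1as KO, near the share of all genes called. That count of 4 was 1 without Evx1as KO replicate 1 or either WT library and 2 without EVX1 KO replicate 2, without EVX1 KO replicate 3 or without Evx1as KO replicate 3, and 0 were called in EVX1 KO against WT (2 at an unadjusted p under 0.05). Of 12 genes for turnover of the inhibitor proteins, Rnf123 rose in Evx1as KO against WT and 0 were called in EVX1 KO (3 at an unadjusted p under 0.05), a single call that was lost without Evx1as KO replicate 1 or 3 or WT replicate 1 or 2. Among 10 E2F family genes, E2f1, E2f2 and Tfdp2 rose and E2f7 fell in Evx1as KO, a count of 4 that was 1 or 2 without any single Evx1as KO or WT library or EVX1 KO replicate 2, and limma called 0 in EVX1 KO (3 at an unadjusted p under 0.05).

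Markers of fibroblasts or feeder cells, which express Cdkn2a and Cdkn1a in culture, were mostly lower in both knockouts than in WT. Of 8 tested, Fn1, Vim, Acta2 and Col3a1 fell and 0 rose in Evx1as KO against WT (2 calls once genes of chromosomes 1, 8 and 14 were left out). In EVX1 KO against WT 0 were called (2 at an unadjusted p under 0.05). Over all genes, 24.5% and 1.24% were called in these comparisons. The median log2 fold change of the list was -0.93 in Evx1as KO and -0.48 in EVX1 KO, beside 0.017 and 0.018 over all genes. Acta2 averaged 25.5, 53.7 and 152 FPKM in Evx1as KO, EVX1 KO and WT. In the same order Vim averaged 133, 222 and 404 FPKM, and Fn1 266, 748 and 769 FPKM. The summed FPKM of all 11 markers was 370 to 590 in Evx1as KO and 968 to 1100 in EVX1 KO, against 1230 to 1480 in WT, and Fn1, Vim and Acta2, which mesoderm also expresses, made up most of it. Col1a1 averaged 7.16 FPKM in Evx1as KO and 15.5 in EVX1 KO, against 15.2 in WT. Thy1 averaged 6.49 FPKM in Evx1as KO and 3.15 in EVX1 KO, against 4.59 in WT. Col1a2 averaged 1.51 FPKM in Evx1as KO and 1.13 in EVX1 KO, against 2.03 in WT, and S100a4 averaged 3.25 and 3.33 FPKM in these knockouts, against 5.01 in WT. Dcn, Lum and Postn did not pass the filter, with Dcn at 0.317 to 1.75 FPKM and the other pair at or under 0.299 FPKM across all libraries.

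Of 10 streak and mesoderm markers 9 fell and 0 rose in Evx1as KO against WT, while 11.4% of all genes fell and 13.0% rose. In EVX1 KO against WT 1.24% of all genes were called. In EVX1 KO against WT 1 fell and 0 rose, with 2 at an unadjusted p under 0.05. That gene, Msgn1, a regulator of presomitic mesoderm and among the genes most like Cdkn1a in level, stood at 0, 0.367 and 0 FPKM in Evx1as KO and at 2.32, 3.07 and 0.969 FPKM in EVX1 KO, against 18.7 and 16.1 FPKM in WT. Its fall in EVX1 KO (-2.62 ± 0.29, limma, adjusted p = 0.0124) was lost without either WT library, with no filter and with a pseudocount of 0.1 (highest adjusted p = 0.15). The summed FPKM of the list, carried mostly by T, Fgf8, Eomes, Mixl1 and Wnt3, was 84.1 to 219 in Evx1as KO and 497 to 562 in EVX1 KO, against 475 to 518 in WT. Of 6 primed epiblast markers, Fgf5, Dnmt3b, Otx2, Foxd3 and Dnmt3a rose in Evx1as KO against WT. In EVX1 KO against WT, Fgf5 (1.31 ± 0.08, limma, adjusted p = 0.000756) and Otx2 (1.64 ± 0.16, adjusted p = 0.0124) rose. The Otx2 call was lost without EVX1 KO replicate 2. Of 5 tested endoderm markers, Gata4, Gata6 and Cxcr4 fell in Evx1as KO against WT. In EVX1 KO 0 of these 5 were called, with 4 at an unadjusted p under 0.05 and a median of 1.16. The part of cell composition in the inhibitor levels was not tested.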

How the data were processed

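Per the labels' protocols, libraries were of polyadenylated RNA (TruSeq Stranded). The authors deposited 1 table of FPKM for 8 libraries. Per the submitters' processing notes, CASAVA and TopHat2 2.0.11 were used and mm10 and mm9 are both listed, without saying for what. Which program computed FPKM, with which annotation and strand setting, is not given in the sources used. Of 21456 symbols matched to RefSeq on GRCm38.p6, 11.8% overlapped in position, so table positions are not those of GRCm38 and are printed as deposited. Of 45772 lines 3527 were blank, and 2660 symbols on several lines with equal values were used once.

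Tests covered the 13188 genes that reached 1 FPKM in 2 or more libraries. limma 3.58.1 (R 4.3.3) was fitted to log2(FPKM + 1) over the 8 libraries jointly, with 3 group means and moderated variances that follow mean level, and its p-values are two-sided. A Benjamini-Hochberg adjusted p under 0.05 over all genes was a call. The steps were run on simulated data with known changes and independent noise in each library. Those data held no chromosome-wide shifts, so they do not show how reliable the calls here are. Relative depth was the commonest ratio to WT replicate 1 among genes under 2 FPKM, at which 10.1% to 13.0% of them lay. Python 3.11.15, pandas 2.3.3, numpy 2.4.6 and matplotlib 3.10.9 were used. The members and gene lists were chosen with earlier results of these data known, so p-values of listed genes are not independent evidence. All members, the targeted genes, Cdkn1c, nearest named neighbours, the 3 genes most like each member and up to 4 genes per list with the largest changes could be named. Where 6 or fewer genes of a list were called, they were named after their values were seen. Alternatives covered the pseudocount, filter, scaling, replicate block, groups in the fit, library weights and each library left out. Replicate numbers did not pair libraries.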

Additional observations from a re-analysis of the deposited data

How the results depend on the processing

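Among counts of all genes called, the comparison of Evx1as KO with WT (3230) and that of EVX1 KO with Evx1as KO (2903) stayed within 1.5 times under every alternative that kept all libraries, except 5552 between the knockouts with array weights. EVX1 KO against WT (164) was far less stable, with 28 with no filter, 28 with the replicate block, 27 with only the 2 groups in the fit and 1148 with array weights. Leaving out 1 library gave 1414 to 3427 calls for Evx1as KO against WT, 4 to 643 for EVX1 KO against WT and 1401 to 2671 for EVX1 KO against Evx1as KO. The extremes came without WT replicate 1 and EVX1 KO replicate 1, without EVX1 KO replicates 2 and 3, and without Evx1as KO replicate 3 and WT replicate 1. A lone WT library is taken to have the spread of the knockout groups. Leaving out chromosomes 1, 8 and 14 was chosen after seeing the data and gave 2908, 167 and 2259 calls.

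Same-numbered libraries of different groups had deviations that correlated at -0.0985 to 0.0759, so numbers were not taken as pairs. With the replicate block the Cdkn1a difference between the knockouts stayed called (adjusted p = 0.0482). Cdkn2a ranged from -2.88 to -2.32 in Evx1as KO and from -2.33 to -1.95 in EVX1 KO against WT over 17 alternatives, and Cdkn1a from -0.78 to -0.72 and from -0.50 to -0.42. The Cdkn2d difference between the knockouts (-0.04) turned to 0.00 with array weights, 0.04 without Evx1as KO replicate 1 and 0.07 without EVX1 KO replicate 3, and ranged from -0.13 to 0.07 when 1 library was left out, with 0 of them called (adjusted p of the 3 reversed values 0.745 to 0.980). The causes were not tested.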
